A study of Mus musculus with 6 samples.

Results

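Cells rest on, read and cut their surroundings with a small set of gene families, and 54 genes of these families were followed in sorted horizontal basal cells of the mouse olfactory epithelium. They are the collagens, laminins, nidogens, integrins, matrix metalloproteinases, ADAM and ADAMTS genes, Timp genes, fibronectin, tenascin C, thrombospondins and decorin. Members were picked by gene symbol from the 8078 entries of the deposited table, by a rule set with earlier results of these data known. Itgb1 and Timp1 were left out by the same rule, as were entries that join several symbols. The symbol prefix also brought in Col4a3bp, a ceramide transfer protein, and Itgb1bp1, a binding partner of an integrin tail, which are counted as members but are not matrix genes.

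These cells lie flat on the basement membrane and divide rarely until the tissue above them is lost. Both groups were mice of 12 weeks carrying a tamoxifen-inducible Cre under the keratin 5 promoter (KRT5-CreER) and the Ai9 fl(Stop)TdTomato reporter on a B6 background. Tamoxifen was given 2 weeks before the sort, and TdTomato-positive cells were collected from olfactory epithelium, so the sort takes keratin 5 expressing cells of that time together with any progeny. The 3 injured libraries came from mice that breathed methyl bromide (180 ppm for 8 h), a gas that destroys much of the epithelium above the basal cells, with harvest 18 h later. The 3 uninjured libraries came from mice without that exposure. Each library pooled cells of several animals, and the p-values below measure the spread between these pools. The values are taken as FPKM, which divides by gene length and by library size, so levels can be compared between genes. Read depth is unknown, and summed FPKM was 164265 to 231755 per library.

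A basal epithelial cell sits on a basement membrane of type IV collagen, laminin and nidogen. It holds on through hemidesmosomes, in which the integrin of Itga6 and Itgb4 and the transmembrane collagen of Col17a1 bind the laminin of epithelial basement membranes, to which Lamb3 gives a chain. Skin keratinocytes at a wound edge are known to loosen these contacts, to make fresh laminin and to secrete matrix metalloproteinases, whose activity is limited by the Timp proteins. ADAM proteases cut membrane proteins at the cell surface, among them growth factors and adhesion molecules.

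Some facts of the libraries bear on every result below. Injured replicate 2 correlated with the other injured libraries at 0.734 and 0.754 across genes on the log2 scale, against 0.849 between injured replicates 1 and 3. With the uninjured libraries it correlated more closely, at 0.804 to 0.830, and injured replicates 1 and 3 did so at 0.788 to 0.825. Injured replicate 2 also held Gap43, a gene of growing neurons, at 113 FPKM, where the other injured libraries had 2.44 and 2.76 and the uninjured ones 5.06 to 13.1. A difference printed below for a member is also given without injured replicate 2 where leaving that library out changed the sign, the call or the size by more than 1.5 times. Of 8 basal cell markers 6 had an entry of their own, with the regulator Trp63 at 99.5 to 140 FPKM in injured and 157 to 194 FPKM in uninjured libraries, so markers of the labelled cell type were present in every library. The summed level of 4 olfactory neuron markers was 117 to 320 FPKM in injured and 407 to 715 FPKM in uninjured libraries. Of these Stoml3, the most abundant, and Adcy3 were below all uninjured values in each injured library. Cnga2 and Gng13 overlapped, at 15.14 and 129 FPKM in injured replicate 2 beside 11.6 to 15.08 and 60.8 to 139 FPKM in uninjured libraries. The summed level of 3 sustentacular cell markers was 48.7 to 63.3 FPKM in injured and 101 to 126 FPKM in uninjured libraries. Among these Ermn overlapped between the groups, at 29.0 to 48.7 FPKM in injured and 36.3 to 41.7 FPKM in uninjured libraries. The sum of 3 gland and respiratory markers was 1196 to 2322 FPKM in injured and 3056 to 4999 FPKM in uninjured libraries. It was mostly Plunc, at 1182 to 2290 FPKM in injured and 3023 to 4978 FPKM in uninjured libraries, and Sox9 and Foxj1 overlapped between the groups. Markers of precursors summed to 10.2, 135 and 7.43 FPKM in injured and 11.02 to 19.5 FPKM in uninjured libraries (4 genes), and leukocyte markers to 7.17 to 25.2 FPKM in injured and 5.42 to 15.6 FPKM in uninjured libraries (3 genes), while none of 7 endothelial markers had an entry of its own. The part of these cells in the results below was not tested, and in bulk samples fewer cells of a type and less RNA per cell cannot be told apart. Xist, transcribed from the inactive X chromosome, was at 0.324 ± 0.249 FPKM in injured and 29.4 ± 3.82 FPKM in uninjured libraries (SD, n = 3 each), and the Y-linked Ddx3y was at 7.74, 8.90 and 11.6 FPKM in injured and at 6.67, 1.21 and 1.55 FPKM in uninjured libraries. Uninjured replicate 1 thus had Xist at the level of its group and Ddx3y just below the injured range. The labels used here do not give the sex of the pooled animals. Xist did not overlap between the groups, so a difference in sex between them cannot be told apart from injury in any result below. The part of sex in the results was not tested.

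No member passed the test over the 6 libraries. Of the 54 members, 51 had a mean of at least 1 FPKM and were tested with limma on log2(FPKM + 1), with Benjamini-Hochberg adjustment over all 7987 genes tested. The count was 0 in each direction at an adjusted p of 0.05, where 0.0% of all genes were called higher and 0.0125% lower. The 1 gene called lower was Xist (log2 difference -4.53 ± 0.29, limma adjusted p = 0.000223), so apart from Xist no gene passed. With no adjustment, p was under 0.05 for 2 members with a positive difference, Col18a1 and Adamtsl4, and 1 with a negative one, Dcn, which is 3.92% and 1.96% of the members beside 7.15% and 4.04% of all genes. The injured values lay above all uninjured values for 1 member, Tnc, and below all of them for 5, Dcn, Itgb5, Nid2, Lamb3 and Col25a1. Those are 1.96% and 9.80% of the members, beside 12.0% and 6.75% of all genes tested.

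Over the 6 libraries the members' median difference was near that of all genes, though single injured libraries differed. The members' median log2 difference, injured minus uninjured, was 0.14, and that of all genes tested was 0.16. Of the members 27 had a positive and 24 a negative difference, so 52.9% were positive beside 62.9% of all genes. By library, the median of log2(FPKM + 1) minus the uninjured mean was -0.06, -0.32 and 0.17 for members in injured replicates 1 to 3. For all genes tested it was 0.14, 0.01 and 0.18. Upper-quartile scaling brought the median of all genes to -0.01 and that of the members to -0.04, with 25 positive and 26 negative members.

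**Figure D1:**
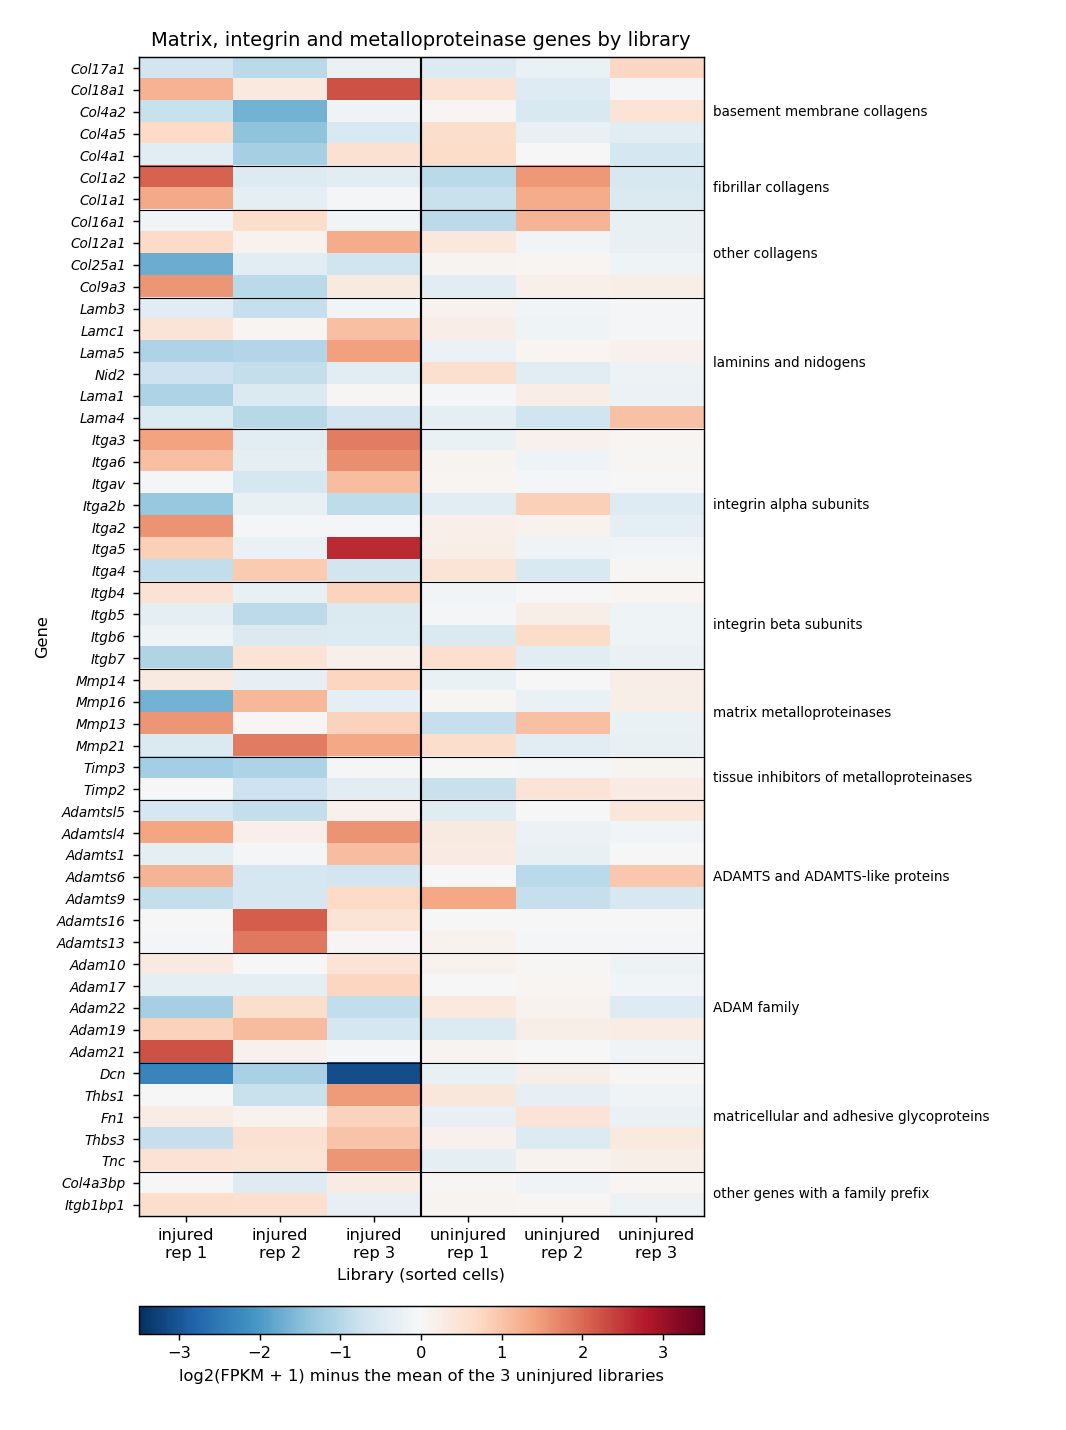
Each row is 1 of 53 of the 54 genes and each column 1 library, injured left of uninjured; the colour is log2(FPKM + 1) minus the mean of the 3 uninjured libraries, and rows are grouped by gene family. Injured replicates 1 and 3 stand out in red for Itga3 and Itga6, where injured replicate 2 is near white, and all 3 injured libraries are blue for Dcn.

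Without injured replicate 2, which leaves 2 injured libraries against 3, the limma test called 4 members higher, among them Itga3, Itga6 and Adamtsl4, and 1 lower, Dcn. This is 7.84% and 1.96% of the members, beside 3.43% and 1.14% of all genes tested. In that comparison 13 members lay above and 9 below all uninjured values, 25.5% and 17.6% of the members beside 29.4% and 14.5% of all genes. Injured replicate 2 had the lowest of the injured values for 32 of the 51 members, which is 62.7% of them beside 46.8% of all genes tested. Injured replicate 3 had the highest for 29, 56.9% of the members beside 37.0% of all genes.

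**Figure D2:**
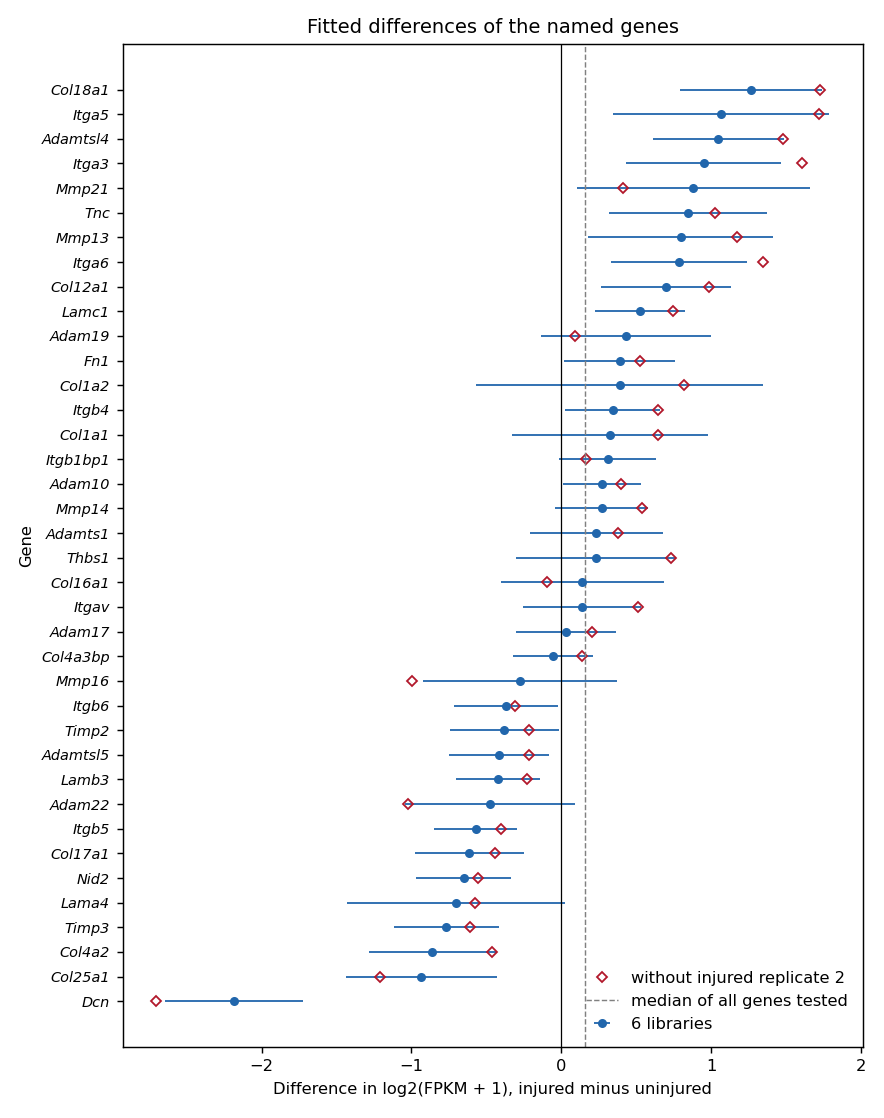
For 38 of the 39 members named by rule, the filled circle is the difference in log2(FPKM + 1), injured minus uninjured, over 6 libraries with its standard error, and the open diamond is the same without injured replicate 2; the dashed line is the median of all genes tested. Col18a1 has the highest value shown (1.27, and 1.73 without that library) and Dcn the lowest (-2.18, and -2.70 without it).

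The laminin chains of basement membranes differed in direction. Lamb3, a beta chain of epithelial laminin, was at 38.4, 28.0 and 46.4 FPKM in injured and at 54.7, 46.5 and 48.5 FPKM in uninjured libraries. All 3 injured values were below the uninjured ones, the nearest of them by less than 0.1 FPKM, and the log2 difference was -0.42 ± 0.28 (adjusted p = 0.581), or -0.23 without injured replicate 2.

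The other laminins and the nidogen spread between libraries. Lamc1, the gamma chain shared by most other laminins, averaged 12.0 ± 4.46 FPKM in injured and 7.74 ± 1.22 FPKM in uninjured libraries (SD, n = 3 each), a log2 difference of 0.52 ± 0.30 (adjusted p = 0.541). Lama5, an alpha chain of epithelial and vascular basement membranes, was at 3.31, 3.42 and 23.7 FPKM in injured and at 6.93 to 8.99 FPKM in uninjured libraries. Injured replicates 1 and 2 were thus below and injured replicate 3 above all uninjured ones. Nid2, which bridges laminin and type IV collagen, was at 5.36, 4.86 and 6.89 FPKM in injured and at 14.5, 6.98 and 8.18 FPKM in uninjured libraries. The groups did not overlap, though by little between injured replicate 3 and uninjured replicate 2, and the log2 difference was -0.65 ± 0.32 (adjusted p = 0.478). Lama1, found in embryonic and some adult basement membranes, was at 1.29 to 3.96 FPKM in injured and 3.21 to 4.72 FPKM in uninjured libraries, and Lama4, a chain of vascular laminin, at 0.179 to 0.641 FPKM in injured and 0.415 to 3.67 FPKM in uninjured libraries. Over the 7 members of the group 2 differences were positive and 5 negative, with a median of -0.42 (-0.23 without injured replicate 2). Lama3 is not analysed here.

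The alpha subunits that bind laminin were high in injured replicates 1 and 3 and not in injured replicate 2. Itga3, which pairs with Itgb1 as a laminin receptor, was at 40.4, 11.2 and 53.6 FPKM in injured replicates 1 to 3 and at 12.4, 16.4 and 15.4 FPKM in uninjured ones. Injured replicates 1 and 3 were above all uninjured libraries and injured replicate 2 was below them. The log2 difference was 0.95 ± 0.52 (adjusted p = 0.528), and 1.603 ± 0.24 without injured replicate 2 (adjusted p = 0.0220). Itga6, the alpha chain of the hemidesmosomal integrin, was at 31.97, 11.6 and 48.3 FPKM in injured and at 15.9, 13.4 and 15.5 FPKM in uninjured libraries, so injured replicate 2 was again the lowest library of all. Its log2 difference was 0.79 ± 0.45 (adjusted p = 0.544), and 1.35 ± 0.25 without injured replicate 2 (adjusted p = 0.0381). Its partner Itgb4 was at 56.5, 32.7 and 69.4 FPKM in injured and at 37.2, 40.0 and 41.7 FPKM in uninjured libraries, again with injured replicate 2 below and the other injured libraries above the uninjured ones. The log2 difference was 0.34 ± 0.32 (adjusted p = 0.694), and 0.65 ± 0.22 without injured replicate 2 (adjusted p = 0.136). Itgb1, the common beta chain outside the member list, was at 66.8, 33.0 and 100.2 FPKM in injured and at 70.2, 58.4 and 50.4 FPKM in uninjured libraries.

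**Figure D3:**
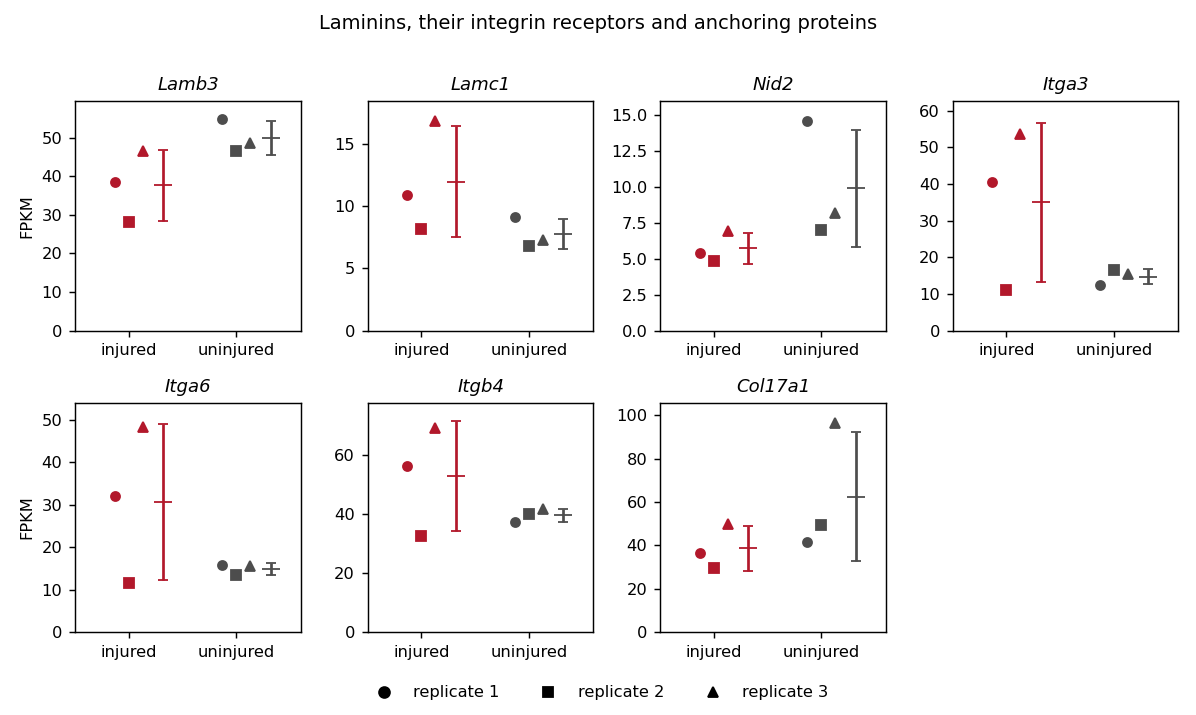
Points are FPKM in each library, injured left of uninjured, with the marker shape giving the replicate and the bar the mean ± SD of 3 libraries. In Itga3, Itga6 and Itgb4 the square of injured replicate 2 sits below the uninjured points while the other injured libraries sit above them; in Lamb3 and Nid2 all injured points lie below the uninjured ones.

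Receptors for fibronectin and other ligands were more mixed. Itga5, the alpha chain of the fibronectin receptor, was at 2.21, 0.534 and 10.1 FPKM in injured and at 0.663 to 1.11 FPKM in uninjured libraries, so a single library carried most of the difference of 1.07 ± 0.72 (adjusted p = 0.585), which was 1.72 without injured replicate 2 (adjusted p = 0.129). Itgav, which joins several beta chains, was at 14.0, 9.26 and 32.03 FPKM in injured and at 14.2 to 15.3 FPKM in uninjured libraries, and its log2 difference of 0.14 ± 0.40 (adjusted p = 0.916) turned to -0.04 with upper-quartile scaling (adjusted p = 0.979) and was 0.51 without injured replicate 2. Its partner Itgb5, a vitronectin receptor chain, was at 7.63, 4.64 and 6.55 FPKM in injured and at 9.29, 11.3 and 8.58 FPKM in uninjured libraries. The groups did not overlap, and the log2 difference was -0.57 ± 0.28 (adjusted p = 0.476). Itgb6, the epithelial chain that with Itgav activates latent TGF-beta, was at 4.32 to 5.80 FPKM in injured and 4.32 to 10.8 FPKM in uninjured libraries. The collagen receptor chain Itga2 was high in injured replicate 1 alone, at 7.07 FPKM, with the other injured libraries at 1.601 and 1.66 FPKM and the uninjured ones at 1.19 to 2.12 FPKM. The chains known mainly from blood cells were low, with Itga2b at 0.885 to 2.90 FPKM in injured and 2.43 to 7.37 FPKM in uninjured libraries, Itga4 at 0.192 to 3.04 FPKM in injured and 0.50 to 2.00 FPKM in uninjured libraries, and Itgb7 at 0.469 to 3.25 FPKM in injured and 1.37 to 3.63 FPKM in uninjured libraries. The 7 alpha subunits had a median log2 difference of 0.48 with 5 positive (0.76 without injured replicate 2), and the 4 beta subunits -0.25 with 1 positive; the beta median was -0.39 with upper-quartile scaling.

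Among basement membrane collagens, Col18a1 alone had a positive difference. Col17a1, the transmembrane collagen of hemidesmosomes, was the most abundant collagen, at 36.3, 29.6 and 50.0 FPKM in injured and at 41.5, 49.6 and 96.4 FPKM in uninjured libraries. The groups overlapped, and the log2 difference was -0.62 ± 0.36 (adjusted p = 0.547). Col18a1, whose C-terminal fragment is endostatin, was at 10.5, 5.28 and 22.3 FPKM in injured and at 5.98, 2.65 and 3.76 FPKM in uninjured libraries. Only injured replicate 2 overlapped the uninjured range, and the log2 difference was 1.27 ± 0.47 (adjusted p = 0.381), or 1.73 ± 0.40 without that library (adjusted p = 0.0618). The type IV chain Col4a2 was at 4.99, 2.27 and 8.47 FPKM in injured and at 9.67, 6.19 and 13.5 FPKM in uninjured libraries (log2 difference -0.86 ± 0.42, adjusted p = 0.486), and the difference was -0.46 without injured replicate 2. Its partner Col4a1 was at 1.02 to 5.599 FPKM in injured and 1.97 to 6.07 FPKM in uninjured libraries, and Col4a5 at 1.57 to 10.1 FPKM in injured and 4.35 to 9.61 FPKM in uninjured libraries. For all 3 type IV chains the lowest value was that of injured replicate 2. The 5 members had a median of -0.42, which was 0.07 without injured replicate 2.

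Interstitial collagens varied between libraries of the same group. Col1a1, a chain of the main fibrillar collagen of connective tissue, was at 26.9, 7.95 and 9.81 FPKM in injured and at 5.52, 26.2 and 6.76 FPKM in uninjured libraries, and its partner Col1a2 was at 46.5, 7.25 and 7.63 FPKM in injured and at 4.95, 31.6 and 6.76 FPKM in uninjured libraries. Injured replicate 1 and uninjured replicate 2 were the high libraries for both chains, and the log2 differences of 0.33 ± 0.65 and 0.39 ± 0.96 (adjusted p = 0.872 and 0.899) turned negative without injured replicate 1, at -0.18 and -0.44, and without uninjured replicate 1, at -0.06 and -0.08, and were 0.64 and 0.82 without injured replicate 2. Of the fibril-associated collagens, Col12a1 averaged 4.38 ± 2.20 FPKM in injured and 2.19 ± 0.745 FPKM in uninjured libraries (SD, n = 3 each; log2 difference 0.70 ± 0.43, adjusted p = 0.564). Its injured replicates 1 and 3, at 3.98 and 6.74 FPKM, lay above the uninjured range of 1.63 to 3.04 FPKM. Injured replicate 2, at 2.41 FPKM, lay within that range. Col16a1 was at 2.72 to 5.09 FPKM in injured and 1.11 to 8.10 FPKM in uninjured libraries. Col9a3, known from cartilage, was at 0.196 to 5.76 FPKM in injured and 0.766 to 1.64 FPKM in uninjured libraries. Col25a1, a transmembrane collagen known from neurons, was at 0.271, 2.21 and 1.61 FPKM in injured and at 3.49, 3.39 and 2.77 FPKM in uninjured libraries. Its groups did not overlap, and the log2 difference was -0.93 ± 0.51 (adjusted p = 0.516). The sum of the neuron markers given above was also lower in injured libraries, though Cnga2 and Gng13 overlapped between the groups.

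Decorin had the largest difference among the members. Dcn, a small proteoglycan that binds collagen fibrils, was at 27.5, 62.5 and 15.3 FPKM in injured and at 116, 162 and 145 FPKM in uninjured libraries. All injured values were below all uninjured ones, with injured replicate 2 the nearest. The log2 difference was -2.18 ± 0.46 (adjusted p = 0.175), and -2.70 ± 0.31 without injured replicate 2 (adjusted p = 0.0112). Dcn is a marker of fibroblasts, and of the 9 fibroblast markers listed only Dcn, Col1a1 and Col1a2 had an entry; their sum was 101, 77.7 and 32.8 FPKM in injured and 126, 220.01 and 158 FPKM in uninjured libraries, and these collagens differed from Dcn in which libraries were high. The share of such cells in the change of Dcn was not tested.

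Genes outside the member list that build the same interstitial matrix were compared with it. Of 33 genes listed 14 had an entry of their own and were tested. The list, like the others used here, was chosen with earlier results of these data known, so its counts are a description only. None of the 14 passed over 6 libraries. Of their differences 5 were positive, where 62.9% of all genes had a positive one, and the median was -0.75 beside 0.16 for all genes. Ogn, a proteoglycan related to decorin, was at 41.4, 28.6 and 42.7 FPKM in injured and at 92.1, 83.4 and 102 FPKM in uninjured libraries. Fmod, another collagen-binding proteoglycan, was at 14.1, 20.01 and 15.7 FPKM in injured and at 39.4, 41.9 and 52.0 FPKM in uninjured libraries. Injured values lay below all uninjured ones for 7 of the 14 genes, which besides these were Bgn, Fbln2, Efemp1, Eln and Ctgf, where 6.75% of all genes did so. Mgp, the matrix Gla protein that limits calcification, went the other way, at 124, 27.6 and 90.1 FPKM in injured and at 24.3, 16.8 and 22.1 FPKM in uninjured libraries. Without injured replicate 2, Ogn, Fmod and Fbln2 were called lower and Mgp higher, where 1.14% of all genes were called lower and 3.43% higher. Cyr61, a matricellular protein and the most abundant of the 14, was at 276, 89.8 and 493 FPKM in injured and at 170 to 244 FPKM in uninjured libraries.

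**Figure D4:**
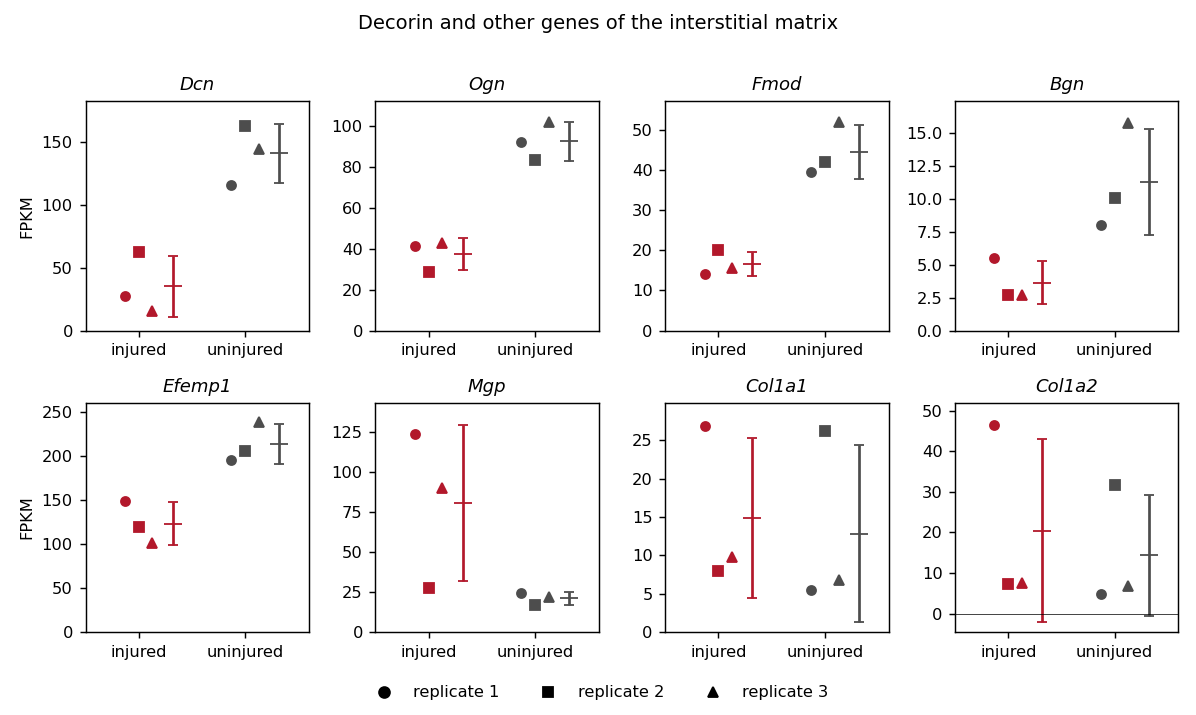
Points are FPKM in each library, injured left of uninjured, with the marker shape giving the replicate and the bar the mean ± SD of 3 libraries; Ogn, Fmod, Bgn, Efemp1 and Mgp are not members. Injured points lie below uninjured ones for Dcn, Ogn, Fmod, Bgn and Efemp1 and above them for Mgp, while Col1a1 and Col1a2 are high in 1 library of each group.

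The other adhesive glycoproteins were higher in injured replicate 3 than in any other library. Tnc, tenascin C of provisional matrix in wounds, was at 1.92, 1.90 and 5.04 FPKM in injured and at 0.643, 1.24 and 1.39 FPKM in uninjured libraries. It was the only member whose injured values all lay above the uninjured ones, at a low level, with a log2 difference of 0.85 ± 0.53 (adjusted p = 0.564). Thbs1, a thrombospondin that activates latent TGF-beta, was at 23.7, 13.6 and 69.6 FPKM in injured and at 32.1, 19.6 and 22.1 FPKM in uninjured libraries, so injured replicate 3 was the only one above the uninjured range. Its log2 difference of 0.23 ± 0.53 (adjusted p = 0.892) was -0.40 without injured replicate 3 and 0.73 without injured replicate 2. Fn1, fibronectin, was at 4.06, 3.61 and 6.43 FPKM in injured and at 2.56 to 4.95 FPKM in uninjured libraries, and Thbs3 at 0.559 to 4.40 FPKM in injured and 0.929 to 2.42 FPKM in uninjured libraries.

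Few matrix metalloproteinases had an entry, and none passed. Mmp14, a membrane-anchored collagenase that also activates other members, was the most abundant, at 12.3, 7.82 and 17.1 FPKM in injured and at 8.13, 9.60 and 11.6 FPKM in uninjured libraries. Injured replicates 1 and 3 were above and injured replicate 2 below the uninjured range, with a log2 difference of 0.27 ± 0.31 (adjusted p = 0.762), or 0.54 without injured replicate 2. The collagenase Mmp13 was at 5.87, 1.42 and 3.09 FPKM in injured and at 0.342, 3.86 and 0.986 FPKM in uninjured libraries. Mmp16, another membrane-anchored member, was at 0.354 to 8.56 FPKM in injured and 2.67 to 3.90 FPKM in uninjured libraries, with its highest value in injured replicate 2. Mmp21 was listed at 0.001, the lowest value used in the table, in injured replicate 1, at 4.04 and 2.65 FPKM in the other injured libraries, and at 0.108 to 1.21 FPKM in uninjured ones.

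The inhibitors differed from each other in direction. Timp3, which is bound to the matrix and also inhibits ADAM proteases, was the most abundant Timp gene in uninjured cells. It was at 44.1, 47.6 and 99.1 FPKM in injured and at 101, 96.9 and 108 FPKM in uninjured libraries. In injured replicates 1 and 2 it was near the same level and below the uninjured values, while injured replicate 3 lay among them. The log2 difference was -0.77 ± 0.35 (adjusted p = 0.458). Timp2, which takes part in the activation of a gelatinase by Mmp14, was at 29.8, 18.1 and 22.7 FPKM in injured and at 17.3, 42.6 and 37.4 FPKM in uninjured libraries (log2 difference -0.38 ± 0.36, adjusted p = 0.702, and -0.21 without injured replicate 2). Timp1, outside the member list, was at 138, 9.72 and 224 FPKM in injured and at 1.499, 2.76 and 2.15 FPKM in uninjured libraries. In injured replicates 1 and 3 Timp1 thus stood above Timp3, and in injured replicate 2 and all uninjured libraries below it.

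**Figure D5:**
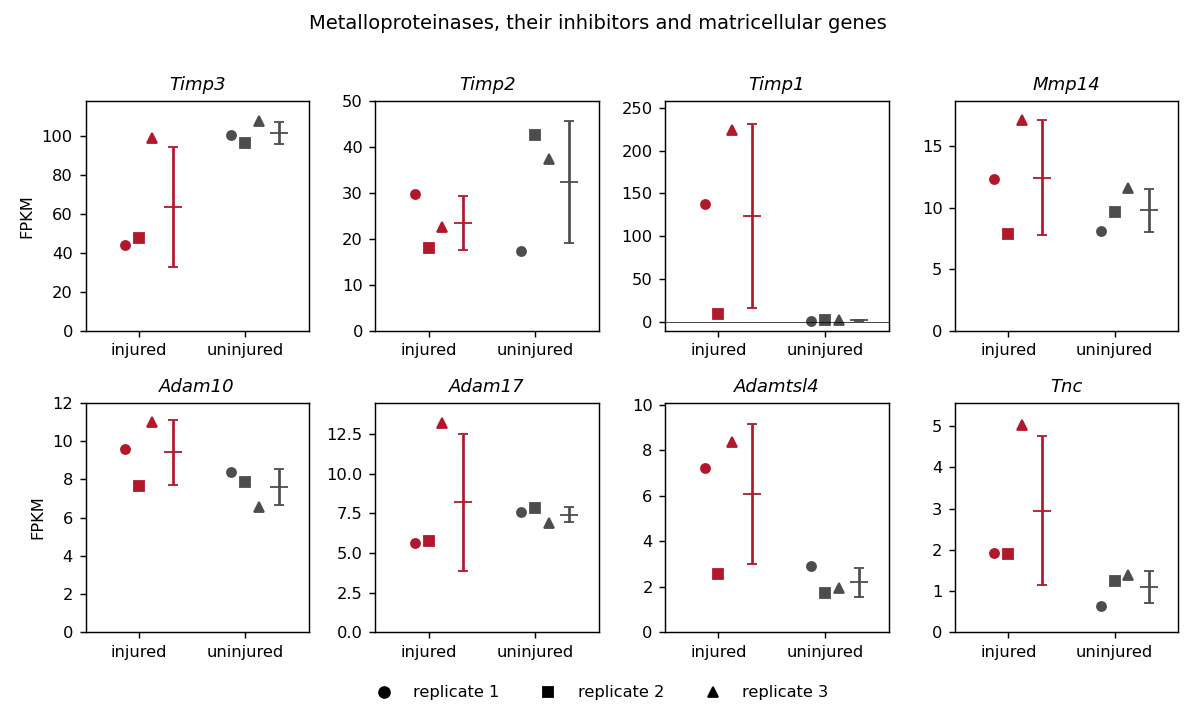
Points are FPKM in each library, injured left of uninjured, with the marker shape giving the replicate and the bar the mean ± SD of 3 libraries; Timp1 is not a member. Timp3 is lower in injured replicates 1 and 2, Timp1 is high in injured replicates 1 and 3, and Adam10, Adam17 and Mmp14 overlap between the groups.

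The sheddases of the ADAM family overlapped between the groups. Adam10, which cuts Notch receptors and E-cadherin, was at 9.58, 7.66 and 11.02 FPKM in injured and at 8.40, 7.87 and 6.54 FPKM in uninjured libraries (log2 difference 0.27 ± 0.26, adjusted p = 0.705). Adam17, which releases ligands of the EGF receptor, was at 5.61, 5.76 and 13.2 FPKM in injured and at 7.56, 7.83 and 6.88 FPKM in uninjured libraries. Its log2 difference of 0.03 ± 0.34 (adjusted p = 0.983) was -0.14 with upper-quartile scaling and -0.15 with quantile normalization, and 0.20 without injured replicate 2. Adam19 was at 0.740 to 4.77 FPKM in injured and 0.935 to 2.22 FPKM in uninjured libraries, and Adam22, a neuronal member without protease activity, at 0.645 to 4.66 FPKM in injured and 1.72 to 3.67 FPKM in uninjured libraries. Of 17 substrates of ADAM proteases tested 9 differences were positive with a median of 0.10 (0.18 without injured replicate 2), and none passed. Of all genes tested 62.9% had a positive difference, with a median of 0.16, and 3.43% were called higher without injured replicate 2. The EGF receptor ligand Hbegf, at 26.4, 3.09 and 55.1 FPKM in injured and 3.21 to 4.28 FPKM in uninjured libraries, and the chemokine Cxcl16, at 14.4, 3.95 and 15.6 FPKM in injured and 2.41 to 3.13 FPKM in uninjured libraries, were called higher without injured replicate 2. The most abundant substrate, Sdc4, a heparan sulfate proteoglycan, was at 125, 52.0 and 141 FPKM in injured and 81.6 to 108 FPKM in uninjured libraries, and E-cadherin (Cdh1) at 96.2, 35.5 and 125 FPKM in injured and 52.6 to 57.4 FPKM in uninjured ones.

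Among ADAMTS and ADAMTS-like genes, Adamtsl4 had the highest difference. Adamtsl4, a secreted protein without a protease domain that binds fibrillin, was at 7.23, 2.57 and 8.38 FPKM in injured and at 2.89, 1.71 and 1.96 FPKM in uninjured libraries. The uninjured range lay below injured replicates 1 and 3 and held injured replicate 2. The log2 difference was 1.05 ± 0.44 (adjusted p = 0.407), and 1.48 ± 0.29 without injured replicate 2 (adjusted p = 0.0435). Adamtsl5, the most abundant of this group, was at 11.4, 9.55 and 19.8 FPKM in injured and at 12.9, 17.8 and 23.7 FPKM in uninjured libraries. Adamts1, a protease of the proteoglycans versican and aggrecan, was at 2.21 to 7.67 FPKM in injured and 2.37 to 3.97 FPKM in uninjured libraries. Adamts6 was at 0.828 to 5.51 FPKM in injured and 0.483 to 4.51 FPKM in uninjured libraries, and Adamts9 at 0.427 to 3.15 FPKM in injured and 0.452 to 5.53 FPKM in uninjured libraries. The 3 members under the filter of 1 FPKM each had a single high library: Adam21 at 4.15 FPKM in injured replicate 1, and Adamts13 at 2.71 and Adamts16 at 3.44 FPKM in injured replicate 2, with 0.414 FPKM or less in every other library. Col4a3bp was at 13.5 ± 3.63 FPKM in injured and 13.8 ± 1.05 FPKM in uninjured libraries, and Itgb1bp1 at 6.93 ± 2.48 FPKM in injured and 5.18 ± 0.625 FPKM in uninjured libraries (SD, n = 3 each).

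The proteins that couple integrins to actin were examined next, since they work on the same contacts from the inside. Of 24 focal adhesion genes tested none passed over 6 libraries, and 21 differences were positive, where 62.9% of all genes had a positive one. The median was 0.33, beside 0.16 for all genes, and 0.69 beside 0.17 without injured replicate 2. The most abundant was Actn4, an actin cross-linker, at 80.2, 36.7 and 110.1 FPKM in injured and 44.3 to 46.1 FPKM in uninjured libraries. Parva, a partner of integrin-linked kinase, was at 50.7, 40.3 and 41.1 FPKM in injured and 42.2 to 43.9 FPKM in uninjured libraries. Without injured replicate 2, the kinase Ilk, the cross-linkers Actn1 and Flna and the caveolar protein Cav1 were called higher, where 3.43% of all genes were. Actn1 was at 42.7, 13.4 and 63.2 FPKM in injured and 11.02 to 12.1 FPKM in uninjured libraries. As for Itga3 and Itga6, injured replicate 2 was the lowest injured library for these 4 genes.

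Other lists around the matrix held no gene that passed over 6 libraries. For comparison, 62.9% of all genes tested had a positive difference, with a median of 0.16. Without injured replicate 2, 3.43% of all genes were called higher and 1.14% lower. Of 13 basement membrane and hemidesmosome partners 4 differences were positive, and the median of the 13 was -0.15, or 0.13 with injured replicate 2 left out. That list also held Usp9x, a ubiquitin protease and not a matrix gene, with a positive difference. Bcam, a laminin receptor of the immunoglobulin family, was at 91.5, 67.0 and 95.3 FPKM in injured and 84.9 to 230 FPKM in uninjured libraries, and Sparc, a collagen-binding matricellular protein, at 51.07 to 133 FPKM in injured and 83.2 to 129 FPKM in uninjured libraries. Npnt, nephronectin, a ligand of integrins in basement membranes, was at 2.89, 3.41 and 1.80 FPKM in injured and at 6.75 to 7.36 FPKM in uninjured libraries, and was called lower without injured replicate 2. Of 11 collagen synthesis and cross-linking genes 8 differences were positive, and their median was 0.07, or 0.50 with injured replicate 2 left out. The cross-linking enzyme Lox, called higher without injured replicate 2, was at 33.2, 9.52 and 31.8 FPKM in injured and 8.17 to 14.4 FPKM in uninjured libraries. The collagen folding proteins P4hb and Ppib, the most abundant, averaged 98.2 ± 35.6 and 106 ± 29.2 FPKM in injured and 79.8 ± 20.2 and 102 ± 35.7 FPKM in uninjured libraries (SD, n = 3 each). Of 17 other pericellular proteases and inhibitors 14 differences were positive, with a median of 0.65. Urokinase (Plau), its receptor Plaur, the inhibitor-family protein Serpinb5 and the lysosomal protease Ctsd were called higher without injured replicate 2. Plau was at 16.2, 0.687 and 18.8 FPKM in injured and 0.189 to 0.848 FPKM in uninjured libraries, Ctsd at 358, 96.2 and 295 FPKM in injured and 82.0 to 105 FPKM in uninjured ones, and the abundant cathepsin Ctsl at 284, 162 and 291 FPKM in injured and 185 to 238 FPKM in uninjured ones.

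Upstream sequences are shown as examples for 5 of the 37 members that have a promoter in the RefSeq table of build GRCm38.p6, picked with their values known. They are Itga3, Adamtsl4 and Col18a1, high in injured replicates 1 and 3, and Lamb3 and Itgb5, below all uninjured libraries in each injured one. Each is the 250 bases before the first start site listed for the gene, 5′ to 3′ on the gene's strand, with capitals marking the GC box GGGCGG of either strand and the AP-1 motif TGANTCA.
Itga3, chr11:95076715-95076964, minus strand: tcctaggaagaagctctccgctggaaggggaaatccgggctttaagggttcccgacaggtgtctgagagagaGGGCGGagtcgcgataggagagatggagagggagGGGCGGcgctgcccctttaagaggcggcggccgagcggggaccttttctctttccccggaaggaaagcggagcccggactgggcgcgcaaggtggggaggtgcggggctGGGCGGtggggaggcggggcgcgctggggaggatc
Adamtsl4, chr3:95687918-95688167, minus strand: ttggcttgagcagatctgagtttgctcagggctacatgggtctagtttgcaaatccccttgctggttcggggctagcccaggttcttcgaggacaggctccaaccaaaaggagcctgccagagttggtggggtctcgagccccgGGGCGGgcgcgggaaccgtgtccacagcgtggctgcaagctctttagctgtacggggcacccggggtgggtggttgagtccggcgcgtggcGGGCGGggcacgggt
Col18a1, chr10:77166531-77166780, minus strand: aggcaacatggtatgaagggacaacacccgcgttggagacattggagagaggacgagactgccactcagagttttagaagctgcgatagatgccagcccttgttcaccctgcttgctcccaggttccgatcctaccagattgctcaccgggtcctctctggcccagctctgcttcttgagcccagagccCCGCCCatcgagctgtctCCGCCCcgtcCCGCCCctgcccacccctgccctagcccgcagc
Lamb3, chr1:193301744-193301993, plus strand: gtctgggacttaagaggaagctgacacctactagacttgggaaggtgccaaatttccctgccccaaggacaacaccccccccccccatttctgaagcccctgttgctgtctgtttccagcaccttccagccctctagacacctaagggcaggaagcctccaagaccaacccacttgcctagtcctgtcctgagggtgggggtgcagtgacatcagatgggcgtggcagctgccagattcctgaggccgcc
Itgb5, chr16:33829415-33829664, plus strand: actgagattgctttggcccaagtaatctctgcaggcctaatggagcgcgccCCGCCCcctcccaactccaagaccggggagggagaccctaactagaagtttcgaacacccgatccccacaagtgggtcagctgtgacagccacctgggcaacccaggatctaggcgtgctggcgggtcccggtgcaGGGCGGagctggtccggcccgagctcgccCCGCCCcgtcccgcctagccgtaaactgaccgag
The GC box was found 3 times each for Itga3, Col18a1 and Itgb5, 2 times for Adamtsl4 and not for Lamb3, and the AP-1 motif in none of these 5 windows. Over all members with a promoter, 22 of 37 (59.5%) held a GC box and 1 of 37 (2.70%), Mmp13, an AP-1 motif, beside 32.9% and 6.87% of 27025 promoters in the RefSeq table, 1 a gene. Those 27025 were not limited to the 8078 entries from which the members were drawn, so the 2 sets are not alike. The motifs share no bases with each other, and a match is a description of the letters only.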

How the data were processed

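RNA of sorted TdTomato-positive olfactory epithelial cells was sequenced after polyA selection and Nextera XT library preparation, per the labels. The submitters' processing notes name FastQC, TopHat, Cuffdiff and build mm9, with no versions given in the sources used here. The authors deposited 1 table of values per gene and library, normalized before deposit and taken here as FPKM. The table states no unit; the heading of its symbol column is that of Cuffdiff output. Scaling between libraries, annotation and the gene filter are not given in the sources used here. Of ratios between libraries of low values, at most 2.96% fell within 1% of each other, so no reads could be recovered and depth is unknown.

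Members were found by symbol; 1 is counted but not reported by name here. Entries whose mean reached 1 FPKM were tested with limma (version 3.58.1, R 4.3.3) on log2(FPKM + 1) with trend and robust variances, injured against uninjured, no covariate, Benjamini-Hochberg threshold 0.05; the script was tested on simulated data. A difference on this scale understates the change of low genes. Members, gene lists and families were chosen with earlier results of these data known. Genes were named if their groups did not overlap, if they were among the 3 most abundant or 2 most different of a family, or, for other lists, if called or among the 2 most abundant. Other members are given by range, and list genes called only without injured replicate 2, with those beside Dcn, were picked with their values known. Promoters are RefSeq's. Figures used Python 3.11.15 and matplotlib 3.10.9.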

Additional observations from a re-analysis of the deposited data

How the results depend on the processing

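Nothing in the labels pairs the libraries by replicate number. Deviations from the group means correlated at -0.0892, 0.0677 and -0.0776 between same-numbered libraries, and at -0.0808 to 0.149 between the others. With 3 libraries per group these values cannot decide whether same-numbered libraries share a preparation. With the replicate block 134 genes were higher and 87 lower (1.68% and 1.09% of those tested), among them 2 members higher, Col18a1 being 1 of them, and 1 lower, Dcn, and 9 and 3 genes of the other lists. Leaving out each library in turn gave 0 to 274 higher and 1 to 91 lower genes, 0 to 4 higher and 0 to 1 lower members, and 0 to 12 higher and 0 to 4 lower genes of the other lists, and the member and list calls all came without injured replicate 2. Members whose groups did not overlap numbered 2 to 13 above and 5 to 13 below (15.9% to 29.4% and 8.44% to 14.5% of all genes, beside 12.0% and 6.75% over the 6 libraries), and the members' median ran between -0.20, without injured replicate 3, and 0.17. Family medians ran between -0.10 and 0.52 for other collagens, -0.35 and -0.11 for integrin beta chains, and -0.063 and 0.23 for the ADAM family. Among the 39 tested members named by rule, differences that changed sign ran between -0.33 and 0.22 for Adam17, -0.20 and 0.52 for Adamts1, -0.32 and 0.74 for Col16a1, -0.18 and 0.97 for Col1a1, -0.44 and 1.14 for Col1a2, -0.23 and 0.14 for Col4a3bp, -0.34 and 0.51 for Itgav, -0.99 and 0.42 for Mmp16, and -0.40 and 0.73 for Thbs1. Outside the named members, the differences of Adamts6, Col4a1, Col4a5 and Lama5 turned from negative to positive without injured replicate 2. With a mean of at least 5 FPKM, where 27 members remain in the test, no member lay above (0) and the matricellular median was -0.98. Upper-quartile scaling called 3 genes lower, turned Itgav to -0.042 and Adam17 to -0.14, and gave medians of -0.39 for integrin beta chains and -0.039 for the 2 genes outside the matrix families. Quantile normalization called 4 lower, with Itgav at -0.064, Adam17 at -0.15 and, for those 2 genes, a median of -0.033. limma with neither trend nor robust variances gave 3 higher and 3 lower genes, and a pseudocount of 0.1 called 2 lower. No member was called in any of the settings after the left-out libraries. With no filter or a pseudocount of 0.5 the counts of calls over all genes and members were those of the main setting. The cause of these changes was not tested. Depth is unknown, so no counting error can be given for the low members.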

Other observations

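Entries that join several symbols are outside the member list but hold genes of the same families. The joined entry of Adam28 and Adamdec1 was at 113, 119 and 75.5 FPKM in injured and at 150.4, 155 and 155 FPKM in uninjured libraries, below every uninjured library in each injured one (log2 difference -0.60 ± 0.31 SE, limma adjusted p = 0.492). The joined entry of Col7a1, the anchoring fibril collagen, and Mir711 was at 1.14, 2.25 and 5.74 FPKM in injured and at 13.3, 3.91 and 3.80 FPKM in uninjured libraries (log2 difference -0.95 ± 0.55 SE, adjusted p = 0.547). Neither can be read as the level of a single gene.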
